A study of Homo sapiens with 18 samples.

Results

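A set of 8 genes differed between THP-1 cells carrying a control hairpin and THP-1 cells depleted of NR4A2 or NR4A3. Most of the 8 are best known from neurons and their precursors. The genes were POU4F2, BHLHE22, NCAM1, NEGR1, SEZ6L2, KCNQ5, CACNA2D1 and MCF2, 8 of the 57500 genes counted in each library. They were chosen by their measured differences between the knockdown lines and the control line, so those differences are described here and not tested. The LPS response of each gene within a line, and its difference between lines, took no part in the choice and were tested.

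THP-1 is a human monocytic leukaemia line. The control line (shNT) had been transduced with lentiviral particles for a non-target hairpin, and the other lines with a hairpin against NR4A2 (shNR4A2) or NR4A3 (shNR4A3). All 3 were stable lines, grown in puromycin and made before this study, so each hairpin was represented by 1 line. Each line was left without LPS (control) or received LPS at 2.5 μg/ml for 2 h, which gave 6 groups of 3 libraries. Library totals ran from 16171161 to 23929138 counts on genes. The labels number the libraries, and the study describes its sequencing data as coming from independent experiments, so p-values describe the spread between experiments within 1 line per hairpin. Every library was made from a whole culture, in which fewer cells of a type and less RNA per cell cannot be told apart.

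NR4A2 and NR4A3 are nuclear receptors of the immediate early class, which bind DNA without a known physiological ligand. NR4A2 is best known in the brain for its role in dopaminergic neurons, and the family is induced by inflammatory signals in monocytes and macrophages. Genes of the neuronal programme are held low in many non-neuronal cells by the repressor REST and its cofactors. Cultured leukaemia lines can nonetheless carry low or moderate levels of single neural transcripts.

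The targeted transcripts were compared first. NR4A2 stood at 2.83, 4.08 and 4.16 TPM in shNT control libraries and at 1.63, 1.82 and 2.41 TPM in shNR4A2 control libraries. With LPS it reached 51.3, 62.2 and 74.7 TPM in shNT cells and 14.8, 20.5 and 28.3 TPM in shNR4A2 cells. NR4A2 was lower in shNR4A2 than in shNT cells without LPS (log2 fold change -0.91, SE 0.23, edgeR adjusted p = 0.0359) and with LPS (-1.52, SE 0.19, edgeR adjusted p = 0.00265). NR4A3 stood at 0.512, 0.556 and 0.693 TPM in shNT control libraries (17 to 21 counts) and at 0.0315, 0.107 and 0.158 TPM in shNR4A3 control libraries (1 to 5 counts). With LPS it was 30.9, 31.9 and 32.3 TPM in shNT cells against 16.7, 17.0 and 18.2 TPM in shNR4A3 cells, a log2 fold change of -0.82 (SE 0.08, edgeR adjusted p = 0.000556). Both transcripts were thus lower in the line labelled with their hairpin, and all 3 NR4A receptors, NR4A1 included, rose with LPS in each line. In the other knockdown line with LPS, NR4A2 stood at 38.3, 41.8 and 60.7 TPM in shNR4A3 cells, which overlapped shNT (log2 fold change -0.36, SE 0.16, edgeR adjusted p = 0.198). With the replicate number as a block, which paired these libraries, that value was -0.37 and fell under an adjusted p of 0.05 (edgeR adjusted p = 0.00132), so NR4A2 was also called lower in the NR4A3 line. NR4A3 stood at 32.8, 33.0 and 36.1 TPM in shNR4A2 cells with LPS (log2 fold change 0.16, SE 0.10, edgeR adjusted p = 0.377).

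The genes lie on different chromosomes of GRCh38. POU4F2, a POU-domain transcription factor of retinal ganglion cells, spans chr4:146638893-146642474 on the plus strand, and BHLHE22, a basic helix-loop-helix factor of cortical and retinal neurons, has a single exon. NCAM1, the neural cell adhesion molecule that also marks natural killer cells as CD56, spans chr11:112961247-113278436 on the plus strand. NEGR1, a GPI-anchored adhesion molecule of the IgLON family, spans chr1:71395940-72282734 on the minus strand. SEZ6L2, a membrane protein of the seizure-related 6 family, spans chr16:29871159-29899547 on the minus strand. KCNQ5, a subunit of the voltage-gated potassium channels that carry the M-current, spans chr6:72621792-73198851 on the plus strand. CACNA2D1, the α2δ subunit of voltage-gated calcium channels that binds gabapentin, spans chr7:81946444-82443798 on the minus strand. MCF2, the DBL guanine nucleotide exchange factor, spans chrX:139581770-139708227 on the minus strand. Counts were summed over all annotated exons of a gene, which made up 87.8% of the span of POU4F2 and 1.31% of that of KCNQ5.

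Promoter windows of RefSeq on GRCh38.p14, from 250 bases before to 50 bases after a gene's start, were at hand for POU4F2, KCNQ5, CACNA2D1 and MCF2. The part before the start that lies outside the deposited gene span is shown for POU4F2 and CACNA2D1, each far higher in 1 knockdown line, and for MCF2, far lower in shNR4A3 cells, read 5′ to 3′ on the gene's strand, with CG dinucleotides in capitals. The first is chr4:146638643-146638892 on the plus strand, the second chr7:82443957-82444206 on the minus strand and the third chrX:139708228-139708417 on the minus strand.
POU4F2: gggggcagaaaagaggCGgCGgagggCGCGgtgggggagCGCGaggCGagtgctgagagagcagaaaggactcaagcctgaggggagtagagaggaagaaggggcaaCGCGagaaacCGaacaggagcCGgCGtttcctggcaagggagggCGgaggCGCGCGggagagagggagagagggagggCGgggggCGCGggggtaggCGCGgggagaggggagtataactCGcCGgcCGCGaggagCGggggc
CACNA2D1: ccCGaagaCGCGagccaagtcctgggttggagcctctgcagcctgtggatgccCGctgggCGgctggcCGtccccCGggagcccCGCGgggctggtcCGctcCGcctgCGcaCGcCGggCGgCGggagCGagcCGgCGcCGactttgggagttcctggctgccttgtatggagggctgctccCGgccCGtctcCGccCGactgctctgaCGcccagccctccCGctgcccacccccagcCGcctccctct
MCF2: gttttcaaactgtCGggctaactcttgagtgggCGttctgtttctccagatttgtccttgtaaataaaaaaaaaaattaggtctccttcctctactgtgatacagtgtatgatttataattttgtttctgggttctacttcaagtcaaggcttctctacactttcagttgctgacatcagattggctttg
The printed stretches of POU4F2 and CACNA2D1 held 26 and 27 CG dinucleotides in 250 bases, and that of MCF2 held 2 in 190 bases. Over the whole 300-base windows, GC content was 69.7% for POU4F2, 72.3% for CACNA2D1 and 65.7% for KCNQ5, against a median of 58.7% over 35116 windows of the same length. The MCF2 window stood at 39.0%, and a window at another MCF2 start at 37.3%. POU4F2 and CACNA2D1, higher in a knockdown line, and KCNQ5, lower in both, thus had GC-rich windows, and of the 4 genes MCF2 had AT-rich ones. The NR4A element NBRE (AAAGGTCA), the nuclear receptor half-site within it (AGGTCA) and the left and right parts of the RE1 element bound by REST (TTCAGCACC and GGACAGCG) were searched on both strands. None was found in the 5 windows, which says only that these letters are not there, and 1.22%, 13.8%, 0.376% and 1.63% of all windows held them. The study searched further upstream and reported an exact NBRE for CACNA2D1, outside the window used here. It also reported an NBRE lacking its first base for NCAM1, which had no window here.

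The genes differed widely in abundance. Per unit length, SEZ6L2 was the most abundant in shNT control cells at 155 ± 5.35 TPM (mean ± SD, n = 3), followed by BHLHE22 at 17.8 ± 0.311, KCNQ5 at 16.2 ± 2.01 and NEGR1 at 14.4 ± 2.07 TPM. MCF2 (3.15 ± 0.311 TPM), NCAM1 (1.66 ± 0.118 TPM), POU4F2 (0.677 ± 0.319 TPM) and CACNA2D1 (0.0629 ± 0.0558 TPM) were low. CACNA2D1 rested on 1 to 6 counts per shNT control library, and it was the only one of the 8 with a library at 0. The values of every library are shown in the plot of TPM by group.

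**Figure D1:**
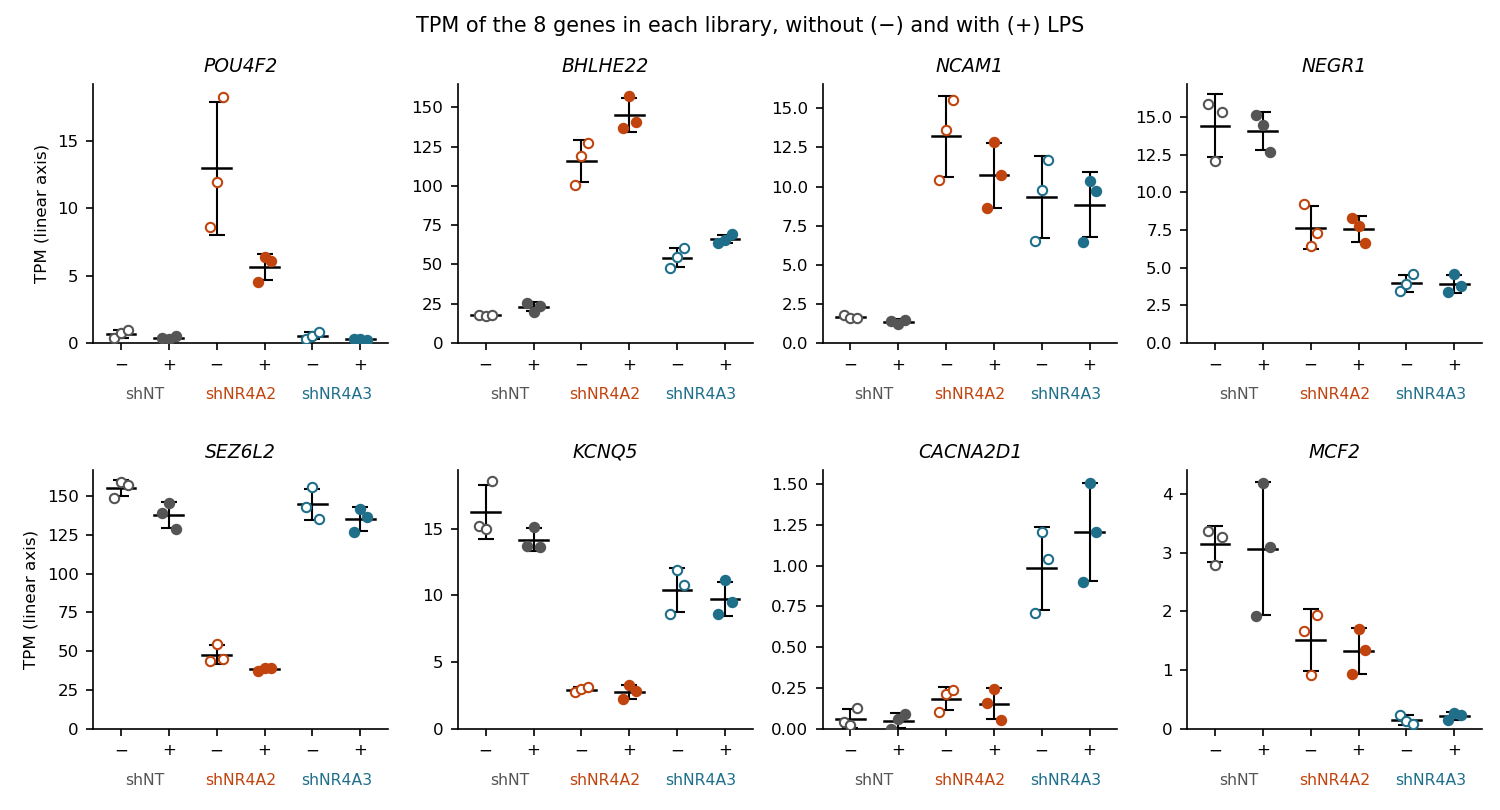
TPM (vertical axis, linear, from 0) of each gene in the 18 libraries, by line, without (open points) and with LPS (filled points); bars give the mean and SD of 3 libraries. POU4F2 is high in shNR4A2 libraries and CACNA2D1 in shNR4A3 libraries, while BHLHE22 and NCAM1 are above shNT in both knockdown lines.

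Of the transcription factors, POU4F2 was 19.2-fold higher in shNR4A2 than in shNT cells. It stood at 0.335, 0.728 and 0.968 TPM in shNT control libraries, at 8.61, 12.01 and 18.3 TPM in shNR4A2 control libraries and at 0.317, 0.504 and 0.823 TPM in shNR4A3 control libraries. Every shNR4A2 library was above every shNT and shNR4A3 library, whereas shNR4A3 and shNT libraries overlapped. The log2 fold change against shNT was 4.26 (SE 0.36) in shNR4A2 and -0.23 (SE 0.49) in shNR4A3 cells. With LPS, POU4F2 stood at 4.56, 6.09 and 6.36 TPM in shNR4A2 libraries against 0.287, 0.333 and 0.512 TPM in shNT libraries, a log2 fold change of 3.92 (SE 0.29). In shNR4A3 cells with LPS it was 0.213, 0.283 and 0.294 TPM, on 4 or 5 counts a library, too few for the fit.

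BHLHE22 was higher in both lines, more so in shNR4A2 cells. Without LPS it stood at 17.5, 18.02 and 18.04 TPM in shNT libraries, at 101, 119 and 127 TPM in shNR4A2 libraries and at 47.9, 54.7 and 60.4 TPM in shNR4A3 libraries. The 3 lines did not overlap. The log2 fold change against shNT was 2.70 (SE 0.12) in shNR4A2 and 1.65 (SE 0.11) in shNR4A3 cells, and 2.71 (SE 0.12) and 1.58 (SE 0.12) with LPS. The 6 group means followed one order, from shNT control through shNT LPS, shNR4A3 control, shNR4A3 LPS and shNR4A2 control to shNR4A2 LPS, with no overlap between neighbours. An exon stretch of 171 bases, 5.24% of the BHLHE22 exons, is shared with AC090136.3 on the opposite strand, and no source used here says whether reads were counted by strand. AC090136.3 stood at 0.733 to 0.797 TPM in shNT control, 3.96 to 4.58 TPM in shNR4A2 control and 1.65 to 2.22 TPM in shNR4A3 control libraries, on 11 to 138 counts per library, against 274 to 2775 for BHLHE22. With LPS it stood at 0.783 to 1.75 TPM in shNT, 7.91 to 9.07 TPM in shNR4A2 and 3.25 to 5.08 TPM in shNR4A3 libraries. Like BHLHE22, it was thus higher in both knockdown lines, and higher with LPS in each of them, whereas its shNT control and LPS libraries overlapped. Its part in the BHLHE22 counts was not tested. Antisense genes also shared 5.52% of the NCAM1 exons and 4.71% of the NEGR1 exons, at no more than 11 and 30 counts per library.

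Of the adhesion molecules, NCAM1 was several-fold higher in both lines. It stood at 1.57, 1.61 and 1.79 TPM in shNT control libraries, at 10.4, 13.6 and 15.6 TPM in shNR4A2 and at 6.54, 9.80 and 11.7 TPM in shNR4A3 control libraries. The 2 knockdown lines overlapped, and neither overlapped shNT. Against shNT it differed by a log2 of 2.99 (SE 0.16) in shNR4A2 and 2.54 (SE 0.19) in shNR4A3 cells without LPS, and 3.01 (SE 0.16) and 2.74 (SE 0.18) with LPS. Between the knockdown lines the difference in log2 was 0.45 (95% interval 0.04 to 0.86) without LPS and 0.28 (95% interval -0.10 to 0.66) with LPS, the smallest of the 8 genes.

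NEGR1 was lower in both lines, more so in shNR4A3 cells. It stood at 12.1, 15.3 and 15.9 TPM in shNT control libraries, at 6.41, 7.29 and 9.21 TPM in shNR4A2 and at 3.43, 3.88 and 4.56 TPM in shNR4A3 control libraries. The 3 lines did not overlap, with or without LPS. Its log2 fold change was -0.91 (SE 0.15) in shNR4A2 and -1.81 (SE 0.13) in shNR4A3 cells, and -0.84 (SE 0.12) and -1.79 (SE 0.11) with LPS. NCAM1 and NEGR1, 2 immunoglobulin-superfamily molecules of the neuronal surface, therefore differed from shNT in opposite directions in each line.

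SEZ6L2 was 3.24-fold lower in shNR4A2 cells. It stood at 149, 157 and 159 TPM in shNT control libraries, at 43.8, 45.1 and 54.6 TPM in shNR4A2 and at 135, 143 and 156 TPM in shNR4A3 control libraries. The log2 fold change was -1.69 (SE 0.12) in shNR4A2 cells, with no overlap. In shNR4A3 cells it was -0.06 (SE 0.08; 95% interval -0.24 to 0.13), and the libraries overlapped those of shNT. With LPS the values were -1.78 (SE 0.08) and 0.03 (SE 0.07). In shNR4A2 control cells SEZ6L2 was still at 47.8 ± 5.89 TPM, above 6 of the other 7 genes.

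Of the channel subunits, KCNQ5 was lower in both lines, more so in shNR4A2 cells. It stood at 14.9, 15.2 and 18.5 TPM in shNT control libraries, at 2.72, 2.95 and 3.15 TPM in shNR4A2 and at 8.61, 10.8 and 11.9 TPM in shNR4A3 control libraries. None of the 3 lines overlapped. In log2, the difference was -2.46 (SE 0.13) in shNR4A2 and -0.59 (SE 0.12) in shNR4A3 cells, and -2.31 (SE 0.13) and -0.49 (SE 0.10) with LPS.

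CACNA2D1 was higher in shNR4A3 cells, from a level near the detection limit in shNT cells. It stood at 0.0231, 0.0390 and 0.127 TPM in shNT control libraries (1, 2 and 6 counts) and at 0.708, 1.04 and 1.21 TPM in shNR4A3 control libraries (32, 47 and 48 counts). In shNR4A2 control libraries it was 0.102, 0.212 and 0.237 TPM (6, 10 and 13 counts), which overlapped shNT. The log2 fold change in shNR4A3 cells was 3.94 (SE 0.46) without and 4.55 (SE 0.51) with LPS, and the comparison of shNR4A2 with shNT could not be fitted at these counts. With a library left out the value ran from 3.62 to 4.85 without LPS, the highest being without shNT control replicate 3, and from 4.00 to 5.30 with LPS, the lowest without the first shNT LPS library and the highest without replicate 3 of that group. Even at its highest, 1.51 TPM, CACNA2D1 remained a low transcript.

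MCF2 was lower in both lines and close to the detection limit in shNR4A3 cells. It stood at 2.79, 3.27 and 3.38 TPM in shNT control libraries, at 0.916, 1.66 and 1.94 TPM in shNR4A2 and at 0.0797, 0.136 and 0.239 TPM in shNR4A3 control libraries. The lines did not overlap, with or without LPS. The shNR4A3 control values rested on 2, 3 and 6 counts. Its log2 fold change was -1.05 (SE 0.25) in shNR4A2 and -4.28 (SE 0.35) in shNR4A3 cells, and -1.15 (SE 0.31) and -3.74 (SE 0.39) with LPS.

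Side by side, BHLHE22 and NCAM1 were higher and NEGR1, KCNQ5 and MCF2 lower in both lines, POU4F2 and SEZ6L2 differed from shNT in shNR4A2 cells and CACNA2D1 in shNR4A3 cells. In shNR4A2 cells CACNA2D1 was too low for the fit, so a smaller difference there is not excluded. Its means were 0.184 TPM in shNR4A2 and 0.0629 TPM in shNT control cells, and 0.154 and 0.0498 TPM with LPS, with overlapping libraries. Both sets of differences share the shNT libraries, so a value that is unusual in those libraries enters both. Over all genes tested, at an edgeR adjusted p under 0.05, 6.45% were called in shNR4A2 against shNT cells without LPS and 6.96% with LPS, 7.23% and 6.45% in shNR4A3 against shNT cells, and 3.08% and 2.33% between the knockdown lines. Since these contrasts chose the 8 genes, calls among them are not counted. In 5 of these 6 comparisons all correlations of same-numbered libraries passed 0.1, and the replicate number was taken as a block. The number of genes called then went from 1019 to 3733 (23.6% of all genes) and from 1085 to 4385 (28.1%) in shNR4A2 cells. It went from 1005 to 3401 (21.8%) in shNR4A3 cells with LPS. Between the knockdown lines it went from 480 to 1800 (11.6%) and from 362 to 3666 (23.6%).

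**Figure D2:**
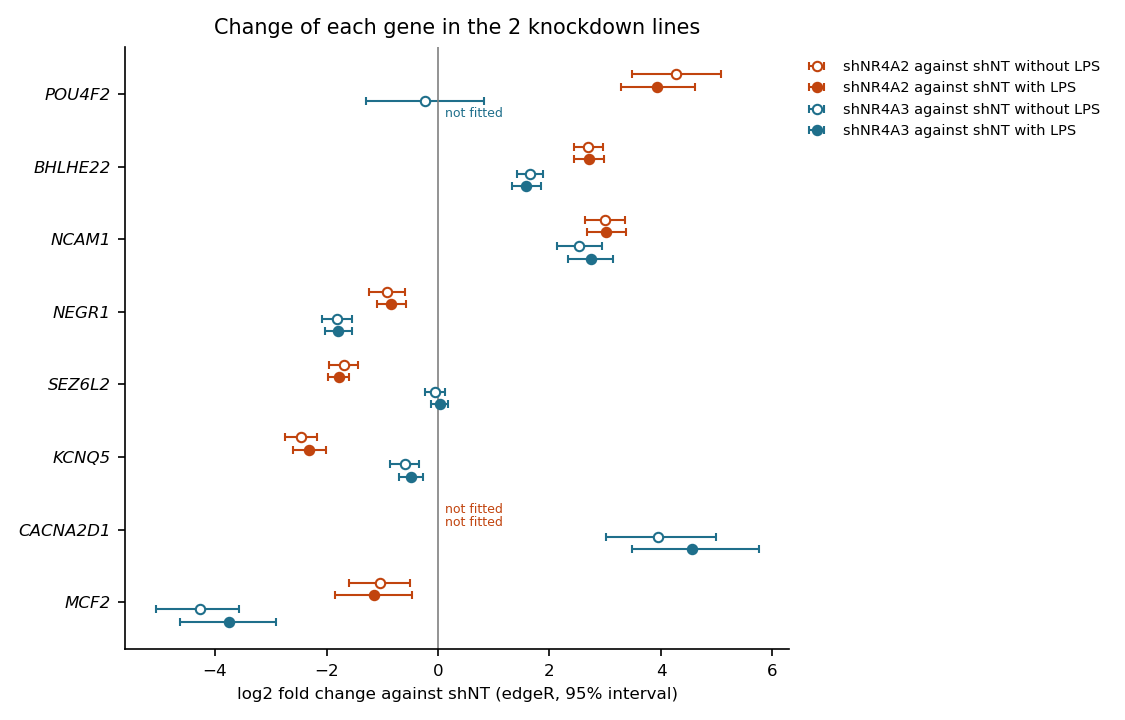
Log2 fold change against shNT (horizontal axis, edgeR, with 95% intervals) of each gene in shNR4A2 and shNR4A3 cells without LPS (open) and with LPS (filled), from 3 libraries a group; genes with too few counts are marked as not fitted. SEZ6L2 in shNR4A3 cells lies near 0, and elsewhere the values without and with LPS have the same sign where both were fitted.

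Next, the response to LPS was tested in each line. BHLHE22 rose in all 3. It went from 17.5, 18.02 and 18.04 to 19.9, 23.4 and 25.7 TPM in shNT cells, from 101, 119 and 127 to 137, 141 and 158 TPM in shNR4A2 cells, and from 47.9, 54.7 and 60.4 to 63.8, 65.9 and 69.1 TPM in shNR4A3 cells. In each line every LPS library was above every control library. The log2 fold change was 0.59 (SE 0.13, edgeR adjusted p = 0.00331) in shNT, 0.60 (SE 0.12, edgeR adjusted p = 0.00314) in shNR4A2 and 0.52 (SE 0.10, edgeR adjusted p = 0.00315) in shNR4A3 cells. With LPS the median log2 TPM ratio of all genes tested was -0.23, -0.28 and -0.24 in the 3 lines, against -0.01, -0.02 and -0.01 on the TMM scale of the fits. The TPM of BHLHE22 rose 1.29-fold, 1.26-fold and 1.22-fold.

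POU4F2 fell with LPS in shNR4A2 cells, from 8.61, 12.01 and 18.3 to 4.56, 6.09 and 6.36 TPM, without overlap (log2 fold change -0.92, SE 0.25, edgeR adjusted p = 0.0217). The call was lost without shNR4A2 control replicate 2 (log2 fold change -0.96, edgeR adjusted p = 0.0637), without control replicate 3 (-0.61, edgeR adjusted p = 0.109) and without LPS replicate 1 (-0.81, edgeR adjusted p = 0.0813). In the other lines its counts were too low for the fit. The exact 2-sided permutation test of TPM, which with 3 against 3 libraries cannot go below 0.1, gave p = 0.2 in shNT cells (0.677 to 0.377 TPM) and p = 0.1 in shNR4A3 cells (0.548 to 0.263 TPM).

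The other 6 genes did not pass edgeR's test with LPS in any line where they were fitted. CACNA2D1 in shNT cells and MCF2 in shNR4A3 cells had only the exact test, which could not have passed the limit. Of the genes fitted, 1 of 6 was called in shNT cells, 2 of 8 in shNR4A2 cells and 1 of 6 in shNR4A3 cells, where 24.9%, 19.3% and 28.1% of all genes tested were called. With the replicate number as a block the number of genes called in shNR4A2 cells went from 3050 to 4751 (30.1%), and the same 2 of the 8 genes were called. NEGR1 had log2 fold changes of 0.18, 0.25 and 0.21 in shNT, shNR4A2 and shNR4A3 cells, with adjusted p between 0.239 and 0.319 in edgeR. SEZ6L2 had 0.05, -0.04 and 0.13, and KCNQ5 had 0.02, 0.17 and 0.13. In TPM, NEGR1, SEZ6L2 and KCNQ5 were lower with LPS in all 3 lines, between 0.807 and 0.990 times control, so the sign of these small values depends on the scale, except for SEZ6L2 in shNR4A2 cells, which was lower on both. NCAM1 had -0.06, -0.04 and 0.14, and in TPM the last was also below control, at 0.945 times. CACNA2D1 had -0.00 (95% interval -1.17 to 1.17) in shNR4A2 and 0.52 (95% interval -0.05 to 1.08) in shNR4A3 cells, and an exact permutation p of 0.7 in shNT cells. MCF2 had 0.17 in shNT and 0.07 in shNR4A2 cells, where its TPM was 0.974 and 0.878 times control, so these signs depend on the scale too, and an exact permutation p of 0.3 in shNR4A3 cells.

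**Figure D3:**
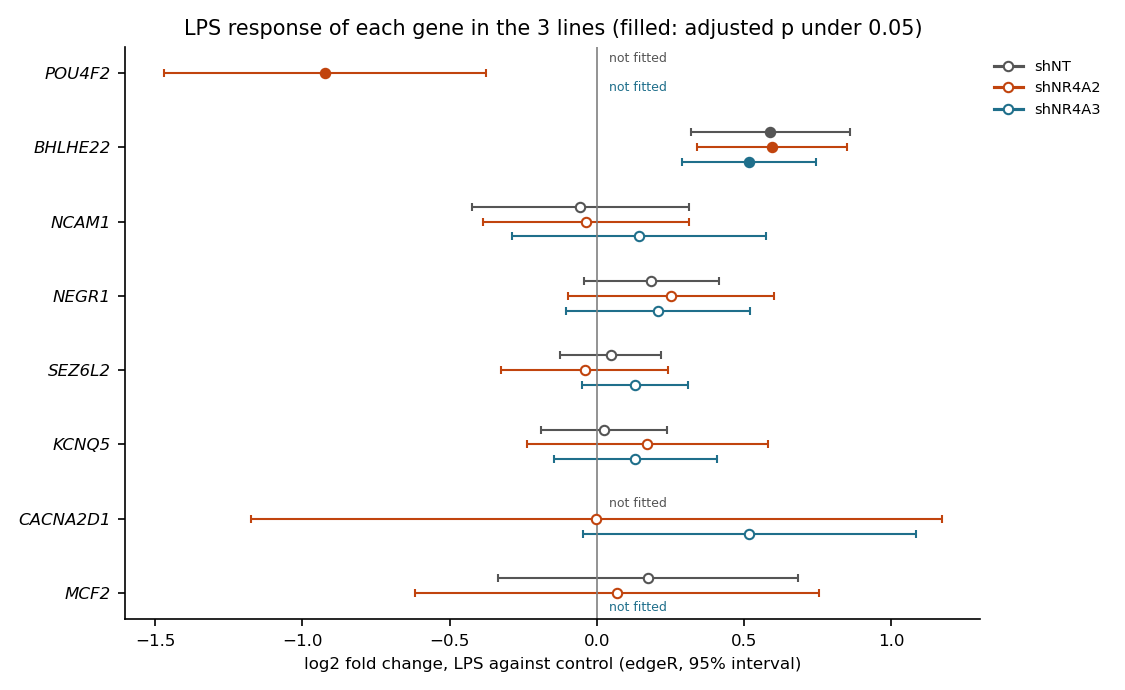
Log2 fold change of LPS against control (horizontal axis, edgeR, with 95% intervals) for each gene in the 3 lines, 3 libraries a group; filled points passed an adjusted p of 0.05. BHLHE22 lies between 0.52 and 0.60 in all 3 lines, and the intervals of NCAM1, NEGR1, SEZ6L2, KCNQ5, CACNA2D1 and MCF2 include 0.

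Whether the lines differed in their LPS response was tested by the interaction of line and LPS. For shNR4A2 against shNT, shNR4A3 against shNT and shNR4A2 against shNR4A3, 0% of all genes were called by edgeR, out of 16674, 16428 and 16447. BHLHE22, NCAM1, NEGR1, SEZ6L2 and KCNQ5 were fitted with LPS in all 3 lines, so these 3 differences were tested for each of them. POU4F2, CACNA2D1 and MCF2 had too few counts for the LPS fit in at least 1 line, although they passed the filter on 12 libraries, so a missing call is no test of a difference that involves a line where they were not fitted. At an unadjusted p under 0.05 there were 365, 824 and 396 genes. With no difference at all, a share of about 0.05 of the genes tested would pass that limit. The 3 numbers lie near or below that share. With the replicate block, edgeR called 8, 22 and 0 genes, and DESeq2 called 2, 10 and 1, none of them among the 8. For BHLHE22 the difference in log2 LPS response was 0.01 (95% interval -0.33 to 0.35) in shNR4A2 against shNT and -0.07 (95% interval -0.41 to 0.26) in shNR4A3 against shNT. For SEZ6L2 the values were -0.08 (95% interval -0.38 to 0.22) and 0.08 (95% interval -0.14 to 0.30). For POU4F2 in shNR4A2 against shNT the 95% interval reached from -1.54 to 0.89 and for CACNA2D1 from -2.30 to 2.50.

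Over the 18 libraries the 8 genes fell into patterns, described here by the Pearson correlation of log2 CPM with no test, since the points share lines and libraries and the genes were chosen on the lines. SEZ6L2 and KCNQ5 ran together (r = 0.965), as did NEGR1 and MCF2 (r = 0.925) and BHLHE22 and NCAM1 (r = 0.922). POU4F2 ran opposite to SEZ6L2 (r = -0.968) and KCNQ5 (r = -0.924), and CACNA2D1 opposite to NEGR1 (r = -0.897) and MCF2 (r = -0.895). POU4F2, SEZ6L2 and KCNQ5 thus separate the shNR4A2 libraries, and CACNA2D1, NEGR1 and MCF2 the shNR4A3 libraries.

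Among 16934 other genes, the 3 most like each member were found on the same scale. Those of SEZ6L2 were HPRT1, the purine salvage enzyme that often serves as a reference transcript (r = 0.986), HNRNPUL1 (r = 0.984) and LAMTOR5 (r = 0.9746). HPRT1 stood at 118 ± 12.6 TPM in shNT control, 32.4 ± 2.36 TPM in shNR4A2 control and 124 ± 8.38 TPM in shNR4A3 control cells. Those of KCNQ5 were TBC1D5 (r = 0.981), SEZ6L2 itself and ABI2 (r = 0.964). POU4F2 was most like GNG11 (r = 0.963), AKR1C2 (r = 0.957) and PTK2 (r = 0.941). BHLHE22 was most like DPYD, the enzyme that degrades pyrimidines (r = 0.959), BIN1 (r = 0.956) and TPM4 (r = 0.953), and NCAM1 was most like LINC01133, RPS6KA2 and SQOR (r between 0.950 and 0.951). NEGR1 was most like FAR2 (r = 0.985), TMEM87A (r = 0.948) and CKAP4 (r = 0.946). MCF2 was most like IL12A-AS1 (r = 0.972), PAQR5 (r = 0.963) and CKAP4 (r = 0.955). CACNA2D1 was most like IGFBP7 (r = 0.937), SNX24 (r = 0.926) and F13A1 (r = 0.900). IGFBP7, a secreted binding protein, stood at 64.8 ± 6.75 TPM in shNT control, 91.2 ± 15.5 TPM in shNR4A2 control and 273 ± 31.0 TPM in shNR4A3 control cells, far above CACNA2D1 in level.

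Genes related to the 8 were then examined by list. Of 22 neural transcription factors related to POU4F2 and BHLHE22, 8 passed the filter in each comparison. With LPS, 4 rose and 2 fell in the control line (all genes called, 24.9%), 4 rose and 0 fell in the shNR4A2 line (19.3%), and 3 rose and 1 fell in the shNR4A3 line (28.1%). With the replicate block, a setting chosen for the lists after the data were seen, 4 rose and 3 fell in the shNR4A2 line (30.1%) and 4 rose and 2 fell in the shNR4A3 line (39.4%). OLIG1, a basic helix-loop-helix factor of the oligodendrocyte lineage and a relative of BHLHE22, stood at 16.0 to 20.03 TPM in shNT control and 37.0 to 102 TPM in shNT LPS libraries (log2 fold change 2.04, SE 0.30, edgeR adjusted p = 0.000177). It rose by a log2 of 3.40 (SE 0.48) in shNR4A2 and 3.25 (SE 0.42) in shNR4A3 cells. OLIG2 rose by 1.83, 2.37 and 2.68, and PRDM8, a partner of BHLHE22 in neuronal repression, by 0.91, 1.10 and 1.12 in shNT, shNR4A2 and shNR4A3 cells, all past the limit. In each line the LPS library numbered 2 held the lowest OLIG1 and OLIG2. Against shNT, PRDM8 had log2 fold changes of -1.002 without and -0.81 with LPS in shNR4A2 cells and of -0.71 and -0.50 in shNR4A3 cells, all past the limit, while BHLHE22 was higher in these cells. NEUROG3 was higher without LPS in shNR4A2 (log2 fold change 0.71, SE 0.18) and in shNR4A3 cells (0.90, SE 0.15). Against shNT, 1 of the 8 was higher and 2 lower in shNR4A2 cells without LPS (6.45%) and 1 higher and 1 lower with LPS (6.96%). In shNR4A3 cells 1 was higher and 3 lower without LPS (7.23%) and 0 higher and 2 lower with LPS (6.45%). With the block the counts were 1 higher and 4 lower, and 1 higher and 3 lower, in shNR4A2 cells without and with LPS (23.6% and 28.1%), and 2 higher and 3 lower in shNR4A3 cells with LPS (21.8%).

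Of 22 adhesion molecules and partners of NCAM1, 12 passed the filter in shNR4A2 against shNT without LPS, and 6 were higher and 1 lower, where 6.45% of all genes were called, with a median log2 fold change of 0.69 against -0.00 for all genes. With LPS 4 were higher and 1 lower (6.96%). In shNR4A3 cells 2 were higher and 2 lower of 11 without LPS (median -0.04, all genes called 7.23%), and 1 was higher and 0 lower with LPS (6.45%). Between the knockdown lines 2 of 12 were higher in shNR4A2 and 1 lower without LPS (3.08%), and 1 was higher and 0 lower with LPS (2.33%). With the block 7 were higher and 2 lower, and 9 higher and 2 lower, in shNR4A2 against shNT without and with LPS (23.6% and 28.1%), 2 higher and 2 lower in shNR4A3 cells with LPS (21.8%), and 3 higher and 1 lower between the knockdown lines without and with LPS (11.6% and 23.6%). CNTN4, a contactin, was higher in shNR4A2 (log2 fold change 0.84, SE 0.14) and shNR4A3 cells (0.75, SE 0.11) without LPS. IGLON5, of the same family as NEGR1, stood at 4.04 to 5.77 TPM in shNT control, 10.6 to 18.6 TPM in shNR4A2 control and 1.76 to 3.13 TPM in shNR4A3 control libraries, above shNT in the first line and below it in the second. NCAM2, the paralog of NCAM1 and the most abundant gene of the list, was lower in shNR4A2 (log2 fold change -0.61, SE 0.11) and shNR4A3 cells (-0.46, SE 0.08) without LPS, opposite to NCAM1. With LPS 0 of the list rose and 1 fell in shNT (11 fitted, all genes called 24.9%) and in shNR4A2 cells (12 fitted, 19.3%), and 3 rose and 1 fell in shNR4A3 cells (11 fitted, 28.1%). With the block 1 rose and 1 fell in shNR4A2 cells (30.1%), where NCAM2 rose by 0.38, and 4 rose and 1 fell in shNR4A3 cells (39.4%), where NCAM2 (0.32), NRCAM (0.80), CNTN1 (1.12) and CADM2 (1.08) rose. ST8SIA4, which adds polysialic acid to NCAM1, was the gene that fell with LPS in all 3 lines, with log2 fold changes of -1.19 in shNT, -1.19 in shNR4A2 and -1.505 in shNR4A3 cells.

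Relatives of SEZ6L2, KCNQ5, CACNA2D1 and MCF2 followed. Against shNT without the block, 6.45% to 7.23% of all genes were called. Both relatives of SEZ6L2, SEZ6 and SEZ6L, summed to at most 0.759 TPM in any library, and neither was fitted in 6 of the 12 comparisons and at most 1 in the others. Of 9 KCNQ and KCNE genes 4 or 5 were fitted. KCNE3 was the most abundant by its mean in shNT control and shNR4A2 control cells (49.8 and 47.2 TPM, against 32.7 and 41.9 TPM for KCNQ1) and KCNQ1 in the other 4 groups. The call against shNT without the block was a higher KCNQ1 in shNR4A3 cells without LPS (log2 fold change 0.57, SE 0.14, edgeR adjusted p = 0.0218). It was 1 of 4 fitted there, where 7.23% of all genes were called. With LPS 1 of the 5 fitted rose and 1 fell in shNT (24.9%) and in shNR4A3 cells (28.1%), and 0 rose and 1 fell in shNR4A2 cells (19.3%). KCNE3 fell by a log2 of 1.18 in shNT, 0.93 in shNR4A2 and 1.04 in shNR4A3 cells. KCNE1, a low transcript, rose in shNT cells from means of 0.309 to 0.717 TPM (log2 fold change 1.42, SE 0.35) and in shNR4A3 cells from 0.124 to 0.988 TPM (3.20, SE 0.54), and had 1.01 (SE 0.38, edgeR adjusted p = 0.0818) in shNR4A2 cells. Of 25 calcium channel genes 9 or 10 were fitted against shNT. The call without the block was a higher CACNA1A in shNR4A2 cells without LPS (log2 fold change 1.23, SE 0.25, edgeR adjusted p = 0.0135), at 0.374 to 0.579 TPM. It was 1 of 9 fitted there, where 6.45% of all genes were called. With the block, CACNA1E was also lower in shNR4A2 cells without and with LPS (-0.48 and -0.46), and CACNA1E and CACNB4 were higher in shNR4A3 cells with LPS (0.45 and 0.70), where 23.6%, 28.1% and 21.8% of all genes were called. NGEF, an exchange factor like MCF2, was higher in shNR4A2 (log2 fold change 0.74, SE 0.17) and lower in shNR4A3 cells (-0.68, SE 0.19) without LPS, both past the limit. MCF2L2, a paralog of MCF2, rose with LPS by 1.93, 2.01 and 2.35 in shNT, shNR4A2 and shNR4A3 cells, and NET1 fell by 0.41, 0.51 and 0.53.

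**Figure D4:**
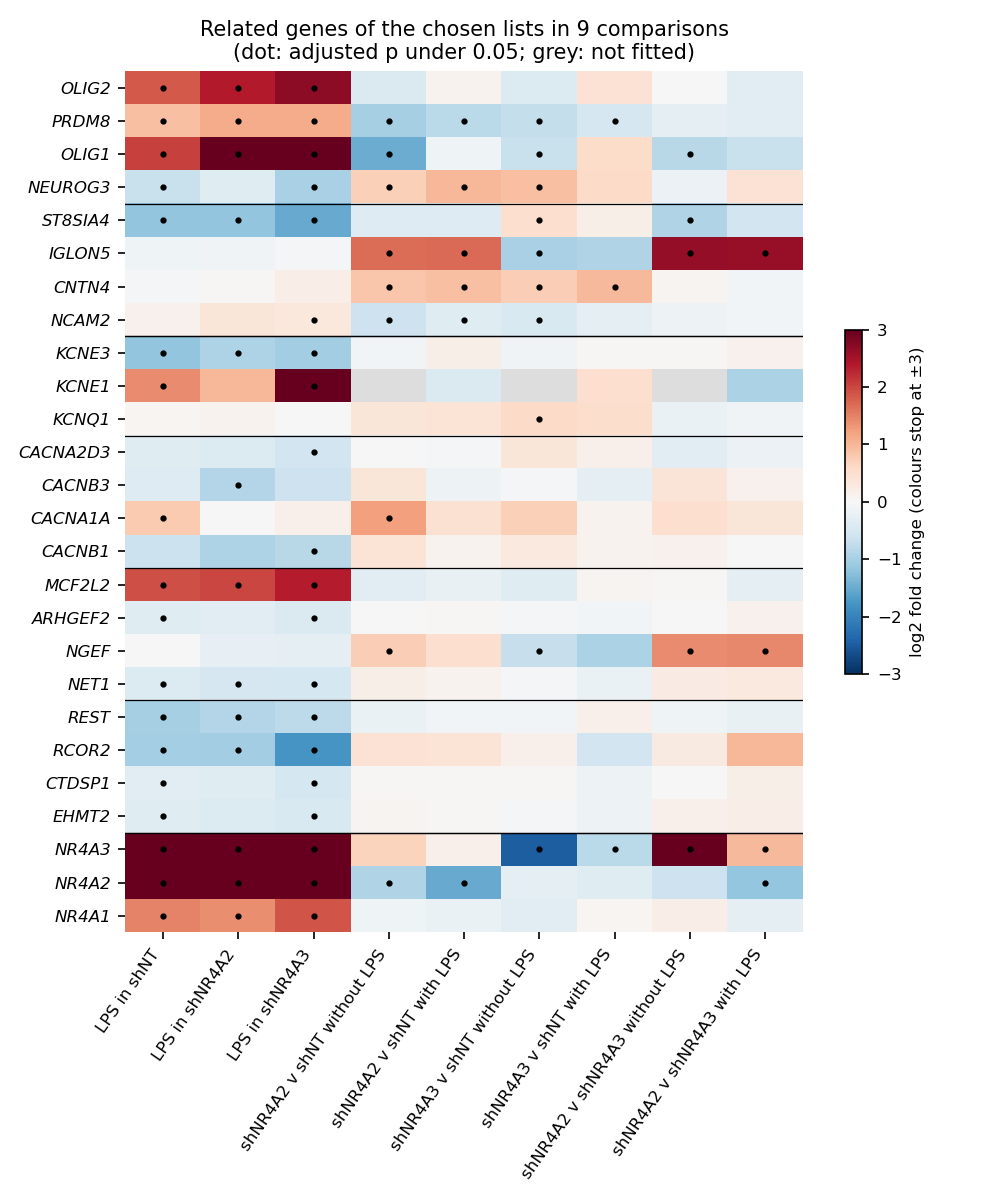
Log2 fold change (colour, stopping at ±3) of the listed genes named by rule (rows, grouped by list between lines) in 9 comparisons (columns, 3 libraries a group); a dot marks an edgeR adjusted p under 0.05 without the replicate block and grey a gene not fitted. REST, RCOR2, CTDSP1 and EHMT2 carry dots in LPS columns and none in the columns against shNT, and IGLON5 and NGEF have opposite colours in the 2 knockdown lines.

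REST, the repressor of neuronal genes, and 9 cofactors were all fitted. Without the block 0 of 10 were called by edgeR in any of the 4 comparisons with shNT, where 6.45% to 7.23% of all genes were. With the block, KDM1A, RCOR3 and HDAC2 were lower in shNR4A2 cells without LPS (log2 fold changes -0.19, -0.24 and -0.27), KDM1A and HDAC2 in shNR4A2 cells with LPS (-0.18 and -0.18), and KDM1A and RCOR3 in shNR4A3 cells with LPS (-0.19 and -0.41), where 23.6%, 28.1% and 21.8% of all genes were called. REST stood at 27.5 to 42.5 TPM in shNT control, 25.6 to 33.1 TPM in shNR4A2 control and 26.0 to 34.6 TPM in shNR4A3 control libraries, with log2 fold changes of -0.21 (SE 0.14) and -0.07 (SE 0.13) against shNT. With LPS, REST fell by a log2 of 1.00 in shNT (edgeR adjusted p = 0.00013), 0.89 in shNR4A2 (0.000732) and 0.78 in shNR4A3 cells (0.000274), and its cofactor RCOR2 fell by 1.02, 1.04 and 1.76, all past the limit. CTDSP1 and EHMT2, the corepressor phosphatase and the H3K9 methyltransferase, fell with LPS in shNT and shNR4A3 cells, and with the block in shNR4A2 cells too. Of the 10, 1 rose and 4 fell with LPS in shNT (all genes called, 24.9%), 1 rose and 2 fell in shNR4A2 (19.3%), and 1 rose and 4 fell in shNR4A3 cells (28.1%). With the block 2 rose and 4 fell in shNR4A2 (30.1%) and 1 rose and 5 fell in shNR4A3 cells (39.4%). Between the knockdown lines with LPS, REST was lower in shNR4A2 cells with the block (-0.24) and CTDSP1, EHMT2 and RCOR2 were higher (0.18, 0.19 and 1.01, 23.6% of all genes called).

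Cell type markers were summed in each library. The 15 pan-neuronal markers came to 5.38 to 12.5 TPM, with ENO2, which non-neuronal cells also express, the most abundant at 2.85 to 9.04 TPM, STMN2 at 0 in all 18 libraries and 5 of the 15 at 3 counts or fewer in every library. Of the 3 to 5 fitted in a comparison, 0 were called by edgeR without the block, where 0% to 28.1% of all genes were. With the block ENO2 was called, higher with LPS in shNR4A2 (log2 fold change 0.47, all genes called 30.1%) and shNR4A3 cells (0.48, 39.4%). It was also higher in shNR4A2 against shNT with LPS (0.47, 28.1%) and in shNR4A2 against shNR4A3 with LPS (0.53, 23.6%). The 12 natural killer cell markers came to 43.6 to 68.9 TPM, of which NKG7 made 32.8 to 57.3 TPM, and 4 of the 12 were at 3 counts or fewer in every library. EOMES, a T-box factor of that list, rose with LPS by 3.37, 2.46 and 3.13 in shNT, shNR4A2 and shNR4A3 cells. Of the 3 fitted, EOMES was the only one called against shNT, higher in shNR4A2 cells without LPS by 0.96 (SE 0.24, edgeR adjusted p = 0.0387), where 6.45% of all genes were called. Glial markers came to 53.7 to 84.9 TPM, with AQP4 and SOX10 at 0. MBP was the most abundant without LPS and fell with it in all 3 lines, and OLIG2, which rose, was the most abundant with LPS, at means of 37.7, 38.9 and 48.7 TPM in shNT, shNR4A2 and shNR4A3 cells against 17.6, 20.1 and 19.8 TPM for MBP. The 8 fibroblast markers came to 1.64 to 2.86 TPM. LUM was at 0 in all shNT and shNR4A3 control libraries and at 0 to 0.102 TPM in shNR4A2 control libraries. With LPS it stood at 0.599 to 1.18 TPM in shNT, 0.0616 to 0.605 TPM in shNR4A2 and 0.501 to 0.799 TPM in shNR4A3 libraries. The 12 monocyte markers came to 1281 to 3512 TPM, and all 12 were fitted in every comparison. CEBPA was the most abundant by its mean without LPS (1102, 945 and 1137 TPM in shNT, shNR4A2 and shNR4A3 cells), and SPI1 with LPS (748, 919 and 1048 TPM), where CEBPA stood at 219, 217 and 187 TPM. Their sum was 1986 to 2335 TPM in shNT control, 2607 to 2848 TPM in shNR4A2 control and 3065 to 3512 TPM in shNR4A3 control libraries, and 5 and 7 of the 12 were higher in shNR4A2 and shNR4A3 than in shNT cells without LPS, with 0 lower, where 6.45% and 7.23% of all genes were called. With LPS 4 and 6 were higher and 0 lower (6.96% and 6.45%). With the block 8 were higher and 1 lower, and 7 higher and 0 lower, in shNR4A2 cells without and with LPS, and 7 higher and 1 lower in shNR4A3 cells with LPS (23.6%, 28.1% and 21.8%). LYZ, lysozyme, was at 177 to 202 TPM in shNT control, 462 to 709 TPM in shNR4A2 control and 708 to 1039.95 TPM in shNR4A3 control libraries. CEBPA, a myeloid transcription factor, was the gene called lower with the block in shNR4A2 control cells (log2 fold change -0.22). Some monocyte markers, between 4 and 7 of the 12 without the block, were thus higher in each knockdown line than in shNT cells, and their part in the differences of the 8 genes was not tested.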

How the data were processed

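RNA from 18 libraries of THP-1 cells was selected for polyadenylated transcripts and sequenced from both ends. The authors deposited a table per library with the raw count of each Ensembl gene, its position and its exon length. The submitters' processing notes name Trimmomatic 0.36, STAR 2.5.2b, featureCounts of Subread 1.5.2 and GRCh38. The annotation release and the counting by strand are not given in the sources used here. Symbols came from GENCODE 29 and matched 56898 of 57500 genes.

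TPM was the count divided by exon length, scaled to 1000000 per library. Each comparison was fitted on its own libraries in edgeR 4.0.16 (R 4.3.3), with filterByExpr, TMM factors and the quasi-likelihood test, and p-values were adjusted by Benjamini-Hochberg over all genes tested, with 0.05 as the limit. A line by LPS interaction used 12 libraries. Intervals are 95% on the total degrees of freedom of the quasi-likelihood fit, which add prior to residual degrees of freedom. Genes not fitted with LPS were compared by an exact permutation test of TPM. Likeness was the Pearson correlation of log2 CPM with a prior count of 2.

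Members and lists were chosen with earlier results of these data known. The text names all 8 members and the 3 genes most like each. From each list up to 4 called genes were picked by smallest adjusted p, and the text names some of them and leaves others out. KDM1A, RCOR3, HDAC2, CACNA1E, CACNB4, NRCAM, CNTN1, CADM2 and ENO2, called with the replicate block, were named after their values were seen, as were genes named for abundance or for levels at 0. The counts of some lists are not reported here, in whole or in part (for KCNQ and KCNE genes, those with the block). Deviations of same-numbered libraries from their group means correlated above 0.1 in all 3 pairs of most comparisons of 2 groups. The only exceptions were LPS in shNT cells (lowest r = 0.00751) and shNR4A3 against shNT without LPS (0.0767). Elsewhere the numbers were taken to pair the libraries. A low correlation does not show that the libraries of these 2 comparisons were unpaired. List counts with the block are left out for them. The list counts with the block were added after the data were seen. DESeq2 1.42.0 and the other alternatives are described below.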

Additional observations from a re-analysis of the deposited data

Results flagged for a closer look

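Among the related genes, those below differed between the 2 knockdown lines in the direct comparison by edgeR, the test of the difference itself. Values are the log2 of shNR4A2 over shNR4A3. IGLON5 differed by 2.64 without and 2.61 with LPS (edgeR adjusted p = 0.000143 and 0.00981), and stood above shNT in shNR4A2 and below it in shNR4A3 control libraries, without overlap. NGEF differed by 1.42 and 1.45 (edgeR adjusted p = 0.00228 and 0.0395), also on either side of shNT. OLIG1 differed by -0.83 and ST8SIA4 by -0.89 without LPS (edgeR adjusted p = 0.0443 and 0.0319). The targeted NR4A3 differed by 3.15 without and 0.98 with LPS (edgeR adjusted p = 0.00462 and 0.00238) and NR4A2 by -1.15 with LPS (edgeR adjusted p = 0.0352). The NR4A3 value without LPS rested on 1 to 5 counts per shNR4A3 control library. CD36, a scavenger receptor of the monocyte list, differed by -1.12 without and -1.27 with LPS (edgeR adjusted p = 0.0229 and 0.0264).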

How the results depend on the processing

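The LPS responses of the 8 genes kept their direction and their side of the limit in DESeq2, with DESeq2 size factors, without the low-count filter, with the replicate block and with all 18 libraries in 1 fit, apart from values near 0. BHLHE22 stayed past the limit with every library left out, and POU4F2 in shNR4A2 cells did not, so the number of members called there was 1 to 2 with a library left out, and 2 with the replicate block. CACNA2D1 in shNR4A2 cells had a log2 fold change of 0.00444 in DESeq2, 0.0184 with DESeq2 size factors and 0.0026 with all libraries in 1 fit, and the difference of BHLHE22 in LPS response between shNR4A2 and shNT cells was -0.00157 without the filter. With a library left out, values that had missed the limit changed sign. They ran from -0.13 to 0.070 for NCAM1, -0.014 to 0.095 for KCNQ5, -0.064 to 0.43 for MCF2 with LPS in shNT cells, from -0.18 to 0.080 for NCAM1, -0.099 to 0.076 for SEZ6L2, -0.46 to 0.41 for CACNA2D1, -0.17 to 0.27 for MCF2 in shNR4A2 cells, and from -0.044 to 0.35 for NCAM1 in shNR4A3 cells. The differences in LPS response ran from -0.66 to 0.0019 for POU4F2, -0.10 to 0.10 for BHLHE22, -0.12 to 0.14 for NCAM1, -0.036 to 0.23 for NEGR1, -0.14 to 0.038 for SEZ6L2, -0.81 to 0.86 for CACNA2D1, -0.34 to 0.15 for MCF2 in shNR4A2 against shNT, from -0.56 to 0.19 for POU4F2, -0.19 to 0.014 for BHLHE22, -0.066 to 0.14 for NEGR1, -0.30 to 1.36 for CACNA2D1 in shNR4A3 against shNT, and from -0.53 to 0.22 for POU4F2, -0.0085 to 0.15 for BHLHE22, -0.38 to 0.013 for NCAM1, -0.075 to 0.21 for NEGR1, -0.030 to 0.15 for KCNQ5 in shNR4A2 against shNR4A3 cells. Of the descriptive differences between lines, 253 of 270 with a library left out moved by less than 1 SE.

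The number of genes called over the whole table depended on the processing. Without the filter it was 1611 and 1843 in shNR4A2 against shNT without and with LPS, 1839 in shNR4A3 with LPS, 838 and 1102 between the knockdown lines, and 29, 138 and 29 for the differences in LPS response. All libraries in 1 fit gave 4601 for LPS in shNR4A2 cells, 1691 for shNR4A2 against shNT with LPS and 1032 between the knockdown lines with LPS, where DESeq2 gave 700. With a library left out the numbers ran from 517 to 1128 and from 342 to 1477 in shNR4A2 against shNT, from 649 to 975 and from 383 to 1693 in shNR4A3 against shNT, and from 249 to 470 and from 94 to 217 between the knockdown lines, each without and then with LPS. For the differences in LPS response it was 8 (shNR4A2) without shNR4A2 LPS replicate 2 and 44 (shNR4A3) without shNR4A3 LPS replicate 2, both against shNT. The cause was not tested. For shNR4A3 against shNT without LPS the replicate block gave 2267 genes in place of 1108. There the correlations of same-numbered libraries were 0.106, 0.0767 and 0.171, so whether the numbers pair these libraries was left undecided. At these depths genes of a few counts per library, such as CACNA2D1 outside shNR4A3 cells, allow no firm value. For the groups with the highest and the lowest mean TPM, the log2 ratio of means with CPM in place of TPM became 3.29 for BHLHE22 (shNR4A2 LPS over shNT control) and 1.735 for SEZ6L2 (shNT control over shNR4A2 LPS, although shNR4A3 LPS was the highest group in CPM), and moved by less than 1 SD for the other genes. By Spearman's correlation, 0 to 2 of the 3 genes most like a member were the same as by Pearson's r.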
